A study of Mus musculus with 12 samples.

Results

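Interneuron markers and neuropeptide precursors were described in RNA-seq libraries of mouse brain cortex and skull after photothrombosis. The members were listed by name rather than by any measured value, though with earlier results of these data known: Npy, Sst, Vip, Cck, Tac1, Penk, Pdyn, Crh, Cort and Pvalb. Of these 10 genes, 8 were analysed among the 22317 genes of the count table, and Sst and Crh were not analysed here. The study used wild-type male BALB/c mice of 8 weeks, and all groups received the same kind of ischemic injury, in which the dye Rose Bengal is injected and a laser is aimed through an optically cleared skull to clot the vessels under the spot. The groups SB2 and SB4 were labelled as cortex taken 2 and 4 days after the skull was injured. The groups BS2 and BS6 were labelled as interparietal bone taken 2 and 6 days after the brain was injured. Each group held 3 libraries, and the uninjured controls and the injured tissues themselves were not analysed here, so every comparison is between groups of injured animals. The labels do not say whether a library came from 1 animal or from a pool, so the p-values measure only the spread between these libraries.

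Most of these genes encode precursors that are cut into small secreted peptides and stored in dense-core vesicles, from which they act on G protein-coupled receptors. In the cortex the precursors mark classes of GABAergic interneurons, which differ in the cells they contact. Vip marks interneurons that mainly inhibit other interneurons, Npy marks several classes including neurogliaform cells, Cck is made by a basket cell class and also by excitatory neurons, and Cort encodes cortistatin, a relative of somatostatin. Tac1 gives rise to substance P, Penk to enkephalins and Pdyn to dynorphins. Pvalb is not a peptide precursor but a calcium-binding protein of fast-spiking interneurons, and it is also abundant in fast-twitch skeletal muscle fibres.

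The libraries held 14126082 to 18972654 counts, at which depth 3 counts, the limit allowed by a count of 0, are at most 0.218 CPM. Levels are given in CPM, a gene's share of the library scaled with edgeR's TMM factors, and limits and floors cover counting error only. The tissue labels went against the marker genes in 2 of the 4 groups. The summed level of 12 general neuronal genes, such as Snap25 and Camk2a, was 190 to 249 CPM in the libraries labelled SB2 (cortex) and 231 to 270.5 CPM in BS6, against 14981 to 15832 CPM in SB4 and 14514 to 15021 CPM in the libraries labelled BS2 (bone). The summed level of 9 bone genes, such as Col1a1 and Ibsp, was 85486 to 97444 CPM in SB2 and 50815 to 196842 CPM in BS6, against 122 to 151 CPM in SB4 and 132 to 182 CPM in BS2. SB4 and BS2 are therefore called the neuron-rich groups below and SB2 and BS6 the bone-rich groups, and no library was relabelled. In bulk tissue, fewer cells of a type and less RNA per cell cannot be told apart.

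The 8 genes lie on 6 chromosomes of mm10, with exon lengths taken from GENCODE M21. Npy lies at chr6:49822710-49829507 and Tac1 at chr6:7554879-7565834, both on the plus strand. Vip lies on the plus strand at chr10:5639218-5647617, and Cck on the minus strand at chr9:121489824-121495694. Pdyn at chr2:129686565-129699844, Penk at chr4:4133531-4138819, Cort at chr4:149125034-149126763 and Pvalb at chr15:78191114-78206400 are all on the minus strand. Penk overlaps the antisense transcript A830012C17Rik by 499 bp, and Cort lies 357 bp from Cenps on the same strand. The strand setting of the counting is not given in the sources used here, so the counts of Penk are uncertain in that respect, and reads of Cort cannot be told by strand from any that run on from Cenps.

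The promoters of the members were searched on both strands for TGACG, the core of the cAMP response element. CREB-family factors act at peptide genes through this element. RefSeq windows of 300 bases on GRCm38.p6 (the same build as mm10), from 250 bases before the start to 50 after it, were at hand for 7 of the 8 genes, and Penk had no entry. The core was found in the windows of 4 genes, Vip, Cck, Tac1 and Cort, and not in those of Npy, Pdyn or Pvalb. The 7 genes had 9 windows, since Pdyn and Pvalb had 2 each, so 4 of 9 windows held the core. Of all 32851 RefSeq promoter windows, 20.8% hold TGACG on either strand, and 1.79% hold the full palindrome TGACGTCA, which contains the core and was found at no member. The 4 windows with the core are shown on the gene's own strand, 5′ to 3′, with the core in capitals (CGTCA is TGACG on the other strand). They are Vip at chr10:5638968-5639267 (plus strand), Cck at chr9:121495645-121495944 (minus), Tac1 at chr6:7554811-7555110 (plus) and Cort at chr4:149126714-149127013 (minus).
Vip: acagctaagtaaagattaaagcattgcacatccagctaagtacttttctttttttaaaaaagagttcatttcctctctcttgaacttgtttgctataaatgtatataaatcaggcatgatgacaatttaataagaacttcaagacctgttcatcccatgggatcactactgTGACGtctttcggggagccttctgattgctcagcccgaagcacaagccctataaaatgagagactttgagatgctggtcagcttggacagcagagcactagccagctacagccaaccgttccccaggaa
Cck: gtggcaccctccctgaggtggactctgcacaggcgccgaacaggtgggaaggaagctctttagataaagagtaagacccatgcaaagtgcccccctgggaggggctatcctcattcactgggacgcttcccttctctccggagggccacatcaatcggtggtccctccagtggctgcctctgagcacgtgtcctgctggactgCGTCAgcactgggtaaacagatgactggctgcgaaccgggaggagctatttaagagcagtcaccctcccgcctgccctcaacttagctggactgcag
Tac1: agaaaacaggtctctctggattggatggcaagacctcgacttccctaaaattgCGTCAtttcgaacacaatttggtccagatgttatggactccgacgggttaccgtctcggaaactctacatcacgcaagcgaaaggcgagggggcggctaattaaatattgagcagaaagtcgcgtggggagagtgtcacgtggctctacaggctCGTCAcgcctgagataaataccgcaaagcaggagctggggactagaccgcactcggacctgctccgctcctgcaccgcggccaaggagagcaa
Cort: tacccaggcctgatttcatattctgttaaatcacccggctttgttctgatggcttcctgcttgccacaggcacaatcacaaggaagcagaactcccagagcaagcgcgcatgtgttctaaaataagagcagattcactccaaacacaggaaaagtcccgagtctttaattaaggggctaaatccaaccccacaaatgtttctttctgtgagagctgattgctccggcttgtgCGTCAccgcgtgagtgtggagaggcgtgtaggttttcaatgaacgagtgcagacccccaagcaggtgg
The core began 79 bases before the start of Vip, 47 bases before that of Cck, 197 and 43 bases before that of Tac1 and 18 bases before that of Cort. A match describes these letters and is not evidence of binding. Genes with and without the core were found among those that differed most between groups.

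The first comparison, SB4 against SB2, asks how the libraries labelled as cortex differed between days 4 and 2 after skull injury. Of the 8 members, 6 were higher in SB4 and 2 were not called, beside 27.8% of all 17293 genes tested that were called higher and 28.6% called lower. Called here means a Benjamini-Hochberg adjusted p (over all genes tested, from edgeR's quasi-likelihood test) under 0.05 together with a log2 fold change beyond 1 in size. The median log2 fold change of the members was 2.81, and that of all genes was -0.01. The second comparison, BS6 against BS2, asks the same of the libraries labelled as bone on days 6 and 2 after brain injury. Here 6 of the 8 members were lower in BS6, beside 26.5% of 17311 genes called lower and 29.0% called higher, and the members' median log2 fold change was -3.30 against 0.02 for all genes. Both comparisons set a neuron-rich against a bone-rich group, so tissue content and day cannot be told apart in either. The difference between these changes was itself called for 6 of the 8 members, beside 73.6% of 18068 genes.

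**Figure D1:**
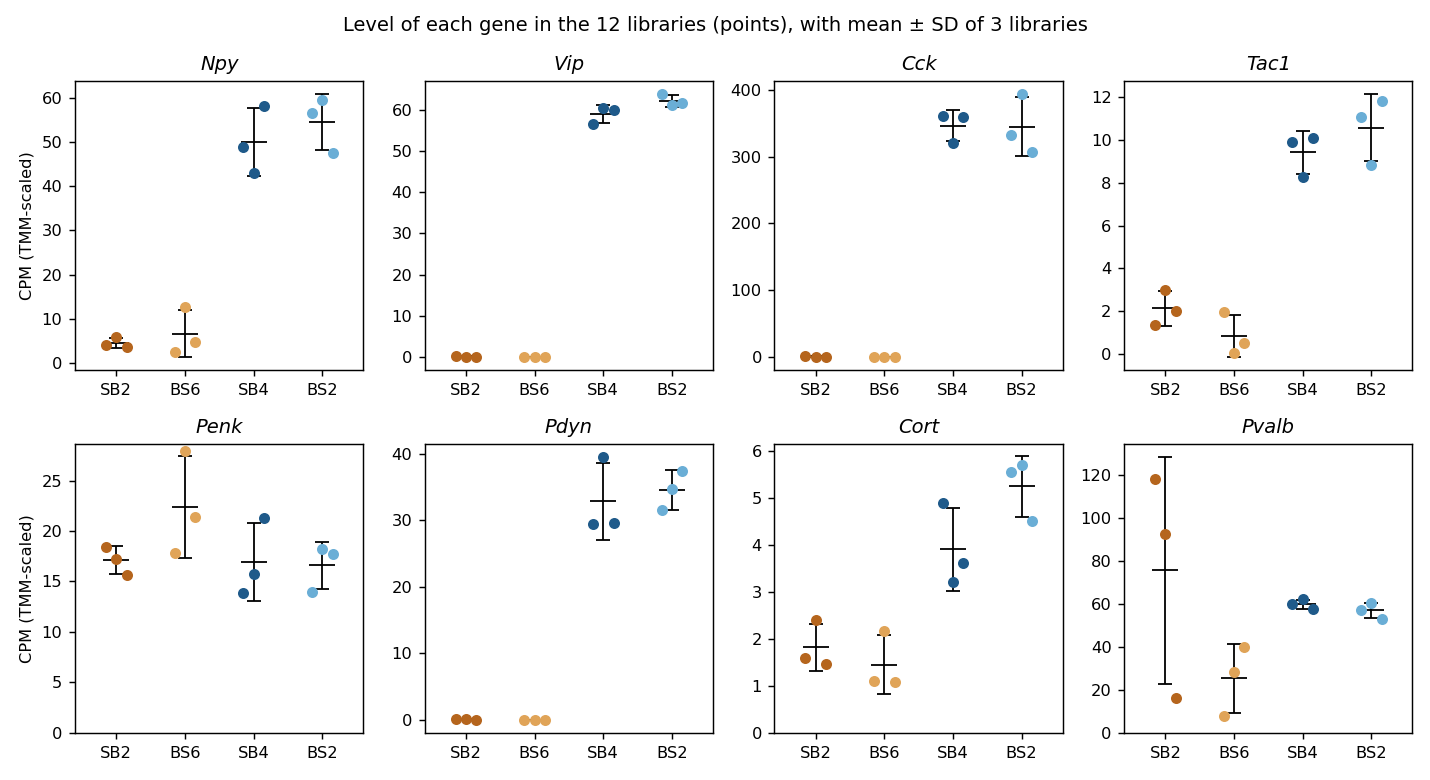
Level of the 8 genes in CPM (vertical axes, a separate linear scale for each gene) in each of the 12 libraries (points) by group, with the mean and SD of 3 libraries (black). Npy, Vip, Cck, Tac1, Pdyn and Cort were high in all libraries of SB4 and BS2, Penk lay between 13.8 and 27.9 CPM in all 12, and Pvalb spread from 16.4 to 118 CPM within SB2.

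Vip and Pdyn had at most 3 counts in every bone-rich library. Vip was at 56.5, 60.6 and 59.9 CPM in SB4 and at 63.8, 61.1 and 61.7 CPM in BS2. In the bone-rich groups it had 3, 0 and 1 counts in SB2 and 1, 2 and 1 counts in BS6. The ratio of pooled counts, scaled by library size, was 724 in SB4 against SB2 (95% exact Clopper-Pearson interval 283 to 2660, counting error only) and 741 in BS2 against BS6 (289 to 2722), and Vip passed the test in both comparisons (adjusted p = 1.7e-11 and 2.7e-06 by edgeR's quasi-likelihood test). Pdyn was at 29.4, 39.6 and 29.7 CPM in SB4 and at 31.6, 34.8 and 37.5 CPM in BS2. It had 1, 2 and 0 counts in SB2 and 0 counts in every BS6 library. The ratio in SB4 against SB2 was 542 (interval 185 to 2631, adjusted p = 3.2e-10 by edgeR's quasi-likelihood test). Against the floor of 3 counts per library, Pdyn was at least 183-fold lower in BS6 than in BS2 (adjusted p = 1.6e-05).

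Cck had the highest level of the members in the neuron-rich groups. It was at 360.3, 319.8 and 359 CPM in SB4 and at 333, 393 and 307 CPM in BS2, and at 1.20, 0.666 and 0.366 CPM in SB2 and 0.456, 0.966 and 0.318 CPM in BS6. No library of a bone-rich group came near those of a neuron-rich group. The log2 fold change was 8.83 (SE 0.20) in SB4 against SB2 and -9.14 (SE 0.38) in BS6 against BS2, with adjusted p = 1.1e-10 and 7.1e-06 by edgeR's quasi-likelihood test.

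Npy differed less and stayed measurable in the bone-rich groups. Its levels were 48.8, 43.0 and 58.2 CPM in SB4 and 56.4, 59.6 and 47.5 CPM in BS2. In SB2 they were 4.16, 5.93 and 3.72 CPM, from 73, 89 and 61 counts. In BS6 they were 2.61, 12.7 and 4.84 CPM, so that replicate 2 stood above the other two. The log2 fold change was 3.45 (SE 0.18, adjusted p = 3.1e-08 by edgeR's quasi-likelihood test) in SB4 against SB2, a 10.9-fold higher level, and -2.97 (SE 0.56, adjusted p = 0.0028) in BS6 against BS2. The mean of Npy in BS6 was 6.71 ± 5.29 CPM (SD, n = 3), and without replicate 2 it was 3.72 CPM.

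BS6 replicate 2 also stood apart in other genes. The summed level of 6 of 8 listed marrow myeloid genes, such as S100a9 and Ngp, was 24069 CPM in that library, against 1387 and 3319 CPM in the other two and 846 to 1505 CPM in SB2. Across the neuron-rich libraries it was 0.708 to 4.61 CPM, with Camp at 0 to 1 counts. The same library had 423 counts of Gad1, the main GABA-synthesising enzyme, against 17 and 0. It also held a summed 54.1 CPM of 7 cerebellar neuron genes, among them 62 counts of Ppp1r17, a Purkinje cell gene at 0 in the other two, where the summed levels were 5.74 and 8.27 CPM. The part of these transcripts in the Npy level was not tested.

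Tac1 and Cort were the least abundant members in the neuron-rich groups and kept a fraction of their level in the bone-rich ones. Tac1 was at 9.93, 8.26 and 10.1 CPM in SB4 and 11.1, 8.84 and 11.8 CPM in BS2, against 1.37, 3.00 and 2.01 CPM in SB2. In BS6 it varied widely, with 30, 1 and 8 counts, or 1.96, 0.0604 and 0.509 CPM. BS6 replicate 2, high in Npy, was therefore the lowest library in Tac1. The log2 fold change of Tac1 was 2.16 (SE 0.25, adjusted p = 9.7e-06) in SB4 against SB2 and -3.62 (SE 0.79, adjusted p = 0.0056) in BS6 against BS2, by edgeR's quasi-likelihood test. The size of the second value depends on BS6 replicate 1, which had 30 counts against 1 and 8.

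Cort was at 4.89, 3.21 and 3.62 CPM in SB4, 5.54, 5.70 and 4.50 CPM in BS2, 1.59, 2.40 and 1.47 CPM in SB2 and 1.11, 2.17 and 1.08 CPM in BS6. The neuron-rich and bone-rich libraries did not overlap. Its log2 fold change was 1.10 (SE 0.27, adjusted p = 0.0030 by edgeR's quasi-likelihood test) in SB4 against SB2, close to the threshold of 1. Without SB4 replicate 1 it was 0.93 and without SB2 replicate 3 it was 0.97, and the call was lost in both. In BS6 against BS2 it was -1.80 (SE 0.33, adjusted p = 0.0025). The neighbouring Cenps, a centromere protein gene, was at 10.1 to 10.8 CPM in SB2 and 7.13 to 8.64 CPM in BS6. In SB4 it was at 4.07 to 6.81 CPM and in BS2 at 4.31 to 7.62 CPM. On average Cenps lay higher in the bone-rich than in the neuron-rich groups, the opposite of Cort, with BS6 and BS2 overlapping. The part of reads running on from Cenps in the Cort counts, and so in the folds of Cort, was not tested.

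Penk and Pvalb, the members that were called in neither comparison, differed in their spread. Penk was at 13.8, 15.8 and 21.3 CPM in SB4, 13.9, 18.2 and 17.7 CPM in BS2, 18.4, 17.2 and 15.7 CPM in SB2 and 17.9, 27.9 and 21.4 CPM in BS6. All groups overlapped with their neighbours in the order of means. The difference between SB4 and SB2 was 0.00 on the log2 scale, with a 95% interval of -0.34 to 0.34, so that a change of 2-fold lies outside it. In BS6 against BS2 it was 0.47 (interval -0.02 to 0.97, adjusted p = 0.075 by edgeR's quasi-likelihood test), with BS6 replicate 2 again the highest library.

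Pvalb was even across the neuron-rich groups, at 59.7, 62.0 and 57.8 CPM in SB4 and 57.3, 60.4 and 53.0 CPM in BS2. It was at 118, 92.4 and 16.4 CPM in SB2, so that 2 libraries lay above and 1 below every neuron-rich library, and at 8.09, 28.4 and 39.8 CPM in BS6, all below BS2. The log2 fold change was -0.33 in SB4 against SB2 with a 95% interval of -2.34 to 1.68, and -1.12 (interval -2.36 to 0.11, adjusted p = 0.087) in BS6 against BS2, by edgeR's quasi-likelihood test. Without SB2 replicate 3 the first became -0.81 with an adjusted p of 1.5e-05, still short of the fold threshold, and without BS6 replicate 3 the second became -1.59 with an adjusted p of 0.038, which is a call.

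Fast muscle transcripts also varied between the bone-rich libraries. The summed level of 10 of the 12 listed fast skeletal muscle genes, led by Myh1 and Acta1, was 2768, 3536 and 442 CPM in the SB2 libraries and 119, 163 and 869 CPM in the BS6 libraries. It was 15.5 to 17.6 CPM in the neuron-rich libraries, where Ckm, Tnni2 and Tnnt3 had 0 to 9 counts. The 2 SB2 libraries with the most muscle transcripts were those with the most Pvalb, though in the opposite order. Within BS6 the order was the same, but replicate 2 had 28.4 CPM of Pvalb against 8.09 CPM in replicate 1 at muscle sums of 163 and 119 CPM, with Myh1 at 61.7 and 18.5 CPM and Acta1 at 13.7 and 20.1 CPM. BS6 replicate 2 is also the library with the cerebellar transcripts given above, and Purkinje cells express Pvalb too. The part of muscle and of cerebellar transcripts in the Pvalb level was not tested.

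**Figure D2:**
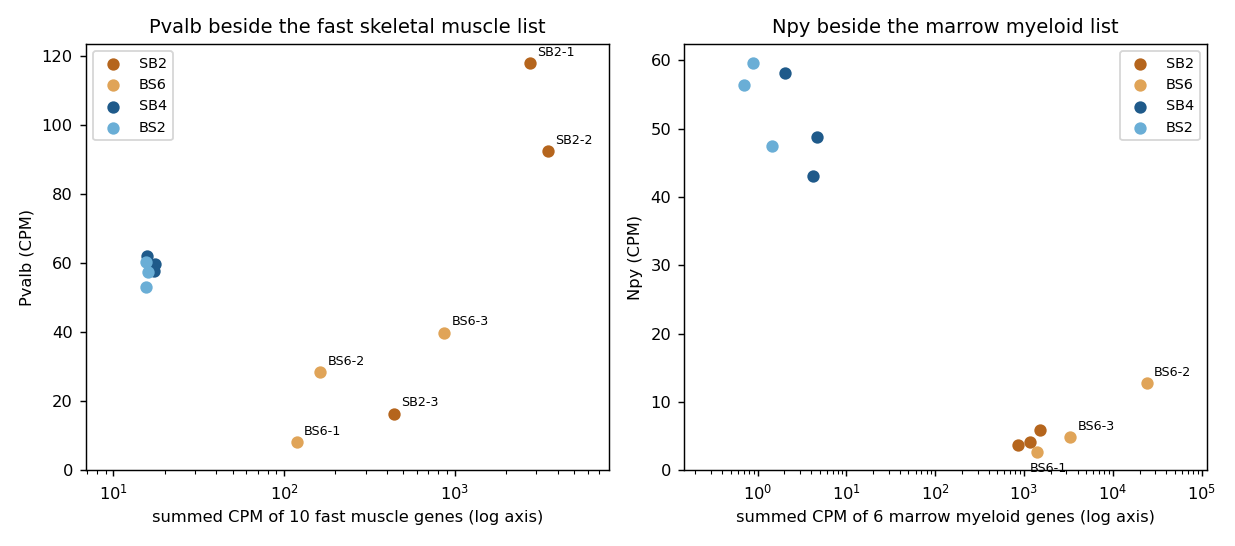
Level of Pvalb in CPM against the summed CPM of 10 fast skeletal muscle genes (left), and of Npy against the summed CPM of 6 marrow myeloid genes (right), for 12 libraries coloured by group, with logarithmic horizontal axes. Within the bone-rich libraries the highest Pvalb (118 and 92.4 CPM) lay at muscle sums of 2768 and 3536 CPM, and the highest Npy (12.7 CPM) at the myeloid sum of 24069 CPM.

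**Figure D3:**
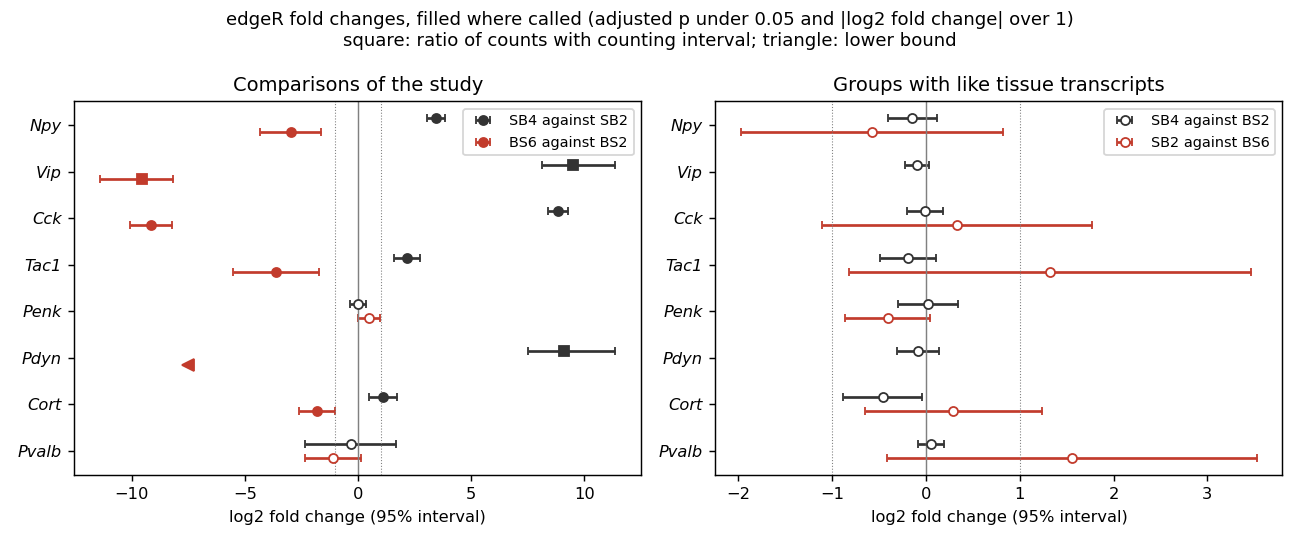
Log2 fold change of the 8 genes (horizontal axis) with its 95% interval, for both comparisons of the study (left) and for groups of like tissue transcripts (right). Filled points passed both thresholds, squares are the ratios of pooled counts with their counting intervals for Vip and Pdyn, which had at most 3 counts in each bone-rich library, and the triangle is the lower bound for Pdyn, at 0 in BS6. In SB2 against BS6 the interval of Penk, -0.86 to 0.05, was the narrowest and that of Tac1, -0.82 to 3.47, the widest.

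The neuron-rich groups were compared directly. Of the 8 members 0 were called between SB4 and BS2, beside 0.147% of 16278 genes called in either direction, and 1 member had an unadjusted p under 0.05 by edgeR's quasi-likelihood test (11.9% of all genes), while DESeq2 also called 0. That member was Cort, at -0.46 (95% interval -0.88 to -0.04, adjusted p = 0.37). The other intervals were tight. For Vip the difference was -0.09 (-0.23 to 0.04), for Cck -0.01 (-0.20 to 0.19), for Pvalb 0.06 (-0.09 to 0.20), for Pdyn -0.08 (-0.31 to 0.14) and for Npy -0.14 (-0.40 to 0.12). All 8 intervals lay within a 2-fold change in either direction. These groups differ in labelled tissue, injured tissue and day, so no difference or likeness can be assigned to a single label.

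The bone-rich groups varied more within themselves. In SB2 against BS6, 0 of the 6 members tested were called, beside 1.86% of 16329 genes, with 0 at an unadjusted p under 0.05 by edgeR's quasi-likelihood test (29.2% of all genes) and 0 called by DESeq2. Vip and Pdyn did not pass the filter on low counts. The difference was -0.41 (95% interval -0.86 to 0.05) for Penk, within a 2-fold change. The intervals of the others included 2-fold differences, at 0.29 (-0.65 to 1.24) for Cort, 0.33 (-1.11 to 1.77) for Cck, -0.57 (-1.97 to 0.83) for Npy, 1.32 (-0.82 to 3.47) for Tac1 and 1.55 (-0.42 to 3.52) for Pvalb. Npy turned from -0.57 to 0.29 without BS6 replicate 2.

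Levels can be compared between genes only per exon length. In CPM per kb, the order in both neuron-rich groups was Cck, Npy, Pvalb, Vip, Pdyn, Penk, Cort and Tac1. In SB4 these levels were 265 ± 17.6 for Cck, 88.3 ± 13.5 for Npy, 57.5 ± 2.05 for Pvalb and 17.3 ± 0.633 for Vip (SD, n = 3). Below them came Pdyn at 11.4 ± 2.00, Penk at 10.4 ± 2.36, Cort at 5.77 ± 1.30 and Tac1 at 2.77 ± 0.297. Every neighbouring pair was separated in SB4 and BS2 except Pdyn and Penk, whose libraries overlapped. The length used is the union of a gene's annotated exons, which can differ from that of the transcripts present. The SDs do not cover this. In CPM, Tac1 (mean 9.43 in SB4) lay above Cort (3.91), so their order per kb rests on the lengths of 3399 and 677 bp. In SB2 the order was led by Pvalb at 72.6 ± 50.7 CPM per kb, then Penk at 10.5 ± 0.832 and Npy at 8.13 ± 2.06, which overlapped. In BS6 the ranges of Pvalb (24.4 ± 15.4), Penk (13.7 ± 3.12) and Npy (11.9 ± 9.35) overlapped in turn. Cck, first of the 8 per kb in the neuron-rich groups, was at 0.569 ± 0.322 CPM per kb in SB2, where its range overlapped that of Tac1.

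**Figure D4:**
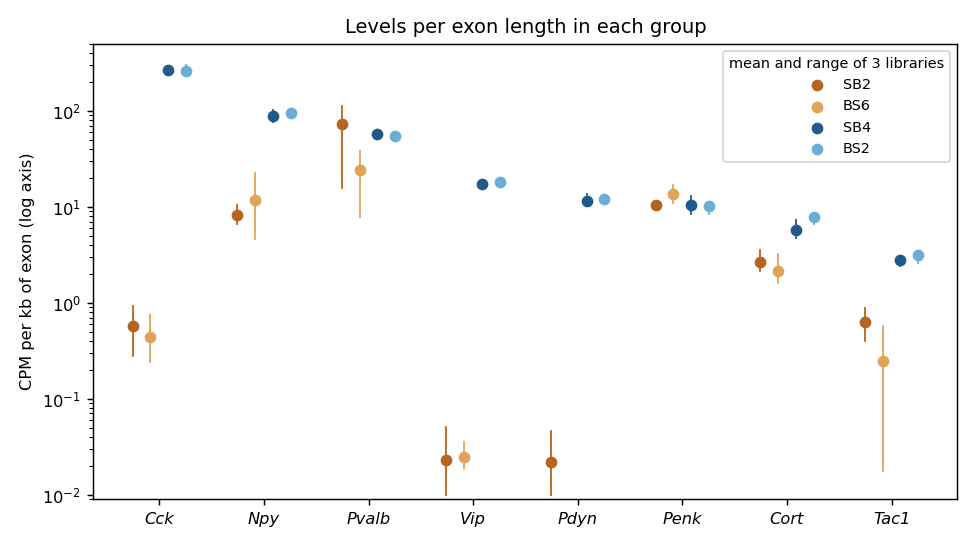
Level per kb of exon (logarithmic vertical axis) of each gene in the 4 groups, as the mean (point) and the range (line) of 3 libraries. A library at 0 is drawn at the foot of the line, and Pdyn in BS6, at 0 in every library, is not drawn. Cck lay at the top of the order in SB4 and BS2 and below 1 in SB2 and BS6, whereas the means of Penk lay between 10.2 and 13.7 in all groups.

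The members were also scaled to the general neuronal genes within each library, a measure added after the levels had been seen. For each 1000 CPM of the 12 general neuronal genes, Vip was at 3.77 to 3.83 CPM in SB4 and 4.07 to 4.40 CPM in BS2, against 0 to 0.686 CPM in SB2 and 0.272 to 0.447 CPM in BS6. Cck went from 20.2 to 26.2 CPM in the neuron-rich libraries to 1.38 to 4.80 CPM in the bone-rich ones. Npy went the other way, from 2.72 to 3.96 CPM in the neuron-rich libraries to 10.9 to 46.9 CPM in the bone-rich ones. Penk did so more widely, from 0.923 to 1.35 CPM up to 71.3 to 103 CPM, and Cort from 0.203 to 0.382 CPM up to 4.62 to 12.6 CPM. Pdyn was at 1.89 to 2.53 CPM in the neuron-rich libraries and at 0 to 0.701 CPM in the bone-rich ones. Pvalb went from 3.58 to 4.02 CPM up to 33.7 to 486 CPM. Tac1 overlapped, at 0.522 to 0.799 CPM in the neuron-rich libraries and 0.223 to 15.8 CPM in the bone-rich ones. Any gene that falls less than the neuronal sum rises on this scale by construction, so such a rise is no separate result. The highest values of Cort, Tac1 and Pvalb came from SB2 replicate 2, whose neuronal sum of 190 CPM was the lowest of all libraries. The scale depends on which neuronal genes carry the sum, since in SB2 Eno2, Nrgn and Camk2a alone had means of 65.7, 40.0 and 35.8 CPM. Singly, the 12 genes were from 13.8-fold (Eno2) to 619-fold (Nefl) higher in SB4 than in SB2, and from 11.4-fold (Eno2) to 231-fold (Nefl) lower in BS6 than in BS2. The folds of Npy (10.9 and 8.12), Cort (2.15 and 3.61) and the uncalled Penk and Pvalb were smaller than those of each of the 12. The 8.12 of Npy depends on BS6 replicate 2, at 12.7 CPM against 2.61 and 4.84 CPM in the other BS6 libraries. Without that library the fold would be larger, so its place below Eno2 there is not firm. The fold of Tac1 was smaller than each of the 12 in SB4 against SB2 (4.43) and lay above that of Eno2 in BS6 against BS2 (12.6). The 12.6 rests on BS6 libraries at 1.96, 0.0604 and 0.509 CPM, and its place above Eno2 could turn when 1 of them is left out. The intervals of Vip (283 to 2660) and Pdyn (185 to 2631) in SB4 against SB2 include the folds of Rbfox3 (365) and Nefl, and Cck (466) lay between these. In BS6 against BS2, the folds of Cck (593) and Vip (741, interval 289 to 2722) were larger than those of each of the 12, and that of Pdyn was at least 183.

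The receptors of these peptides were taken from a list of 20 genes, of which 15 were among those counted and 14 were tested in the study's comparisons. In SB4 against SB2, 11 were higher, 1 was lower and 2 were not called, beside 27.8% of all genes higher and 28.6% lower. In BS6 against BS2, 11 were lower, 1 was higher and 2 were not called, beside 26.5% of all genes lower and 29.0% higher. The list's median log2 fold change was 5.15 and -3.85, beside -0.01 and 0.02 for all genes. Between SB4 and BS2 0 of 14 were called, beside 0.147% of all genes, with 2 at an unadjusted p under 0.05 by edgeR's quasi-likelihood test (11.9% of all genes).

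Cckbr, the main brain receptor of cholecystokinin, was at 80.9, 81.7 and 70.3 CPM in SB4 and 63.1, 72.3 and 61.1 CPM in BS2. It had 3, 2 and 4 counts in SB2 and 7, 0 and 5 counts in BS6, and Cck itself had 21, 10 and 6 counts in SB2 and 7, 16 and 5 counts in BS6. Its log2 fold change was 8.67 (SE 0.17) and -7.93 (SE 0.54) in the study's comparisons. Oprd1, the delta opioid receptor at which enkephalins act, was at 31.8 to 35.5 CPM in SB4 and 31.7 to 35.4 CPM in BS2 and had 0, 0 and 1 counts in SB2, a ratio of 1659 with a counting interval from 297 to 65579. Penk, its ligand's precursor, was not called between these groups. Npy1r kept 13.2, 19.3 and 16.6 CPM in BS6 against 46.4, 41.6 and 44.7 CPM in BS2, a log2 fold change of -1.40 (SE 0.16, adjusted p = 3.2e-04 by edgeR's quasi-likelihood test).

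Both receptors of Vip differed between the groups in opposite directions. Vipr1 was at 63.6, 57.1 and 59.1 CPM in SB4 and at 2.34, 1.73 and 2.08 CPM in SB2, with a log2 fold change of 4.86 (SE 0.12). Vipr2 was at 0.993, 0.924 and 0.390 CPM in SB4 and at 3.53, 3.73 and 4.15 CPM in SB2, with a log2 fold change of -2.31 (SE 0.32, adjusted p = 3.8e-05 by edgeR's quasi-likelihood test). In BS6 against BS2 the values were -4.64 (SE 0.21) for Vipr1 and 3.99 (SE 0.38) for Vipr2. Vipr2 was also the 1 receptor called of 6 tested between the bone-rich groups, beside 1.86% of all genes, lower in SB2 than in BS6 (log2 fold change -1.51, SE 0.31, adjusted p = 0.046 by edgeR's quasi-likelihood test). That call was lost when any library but BS6 replicate 2 was left out (adjusted p from 0.064 to 0.20), with total counts (0.056) and with the replicate block (0.11).

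**Figure D5:**
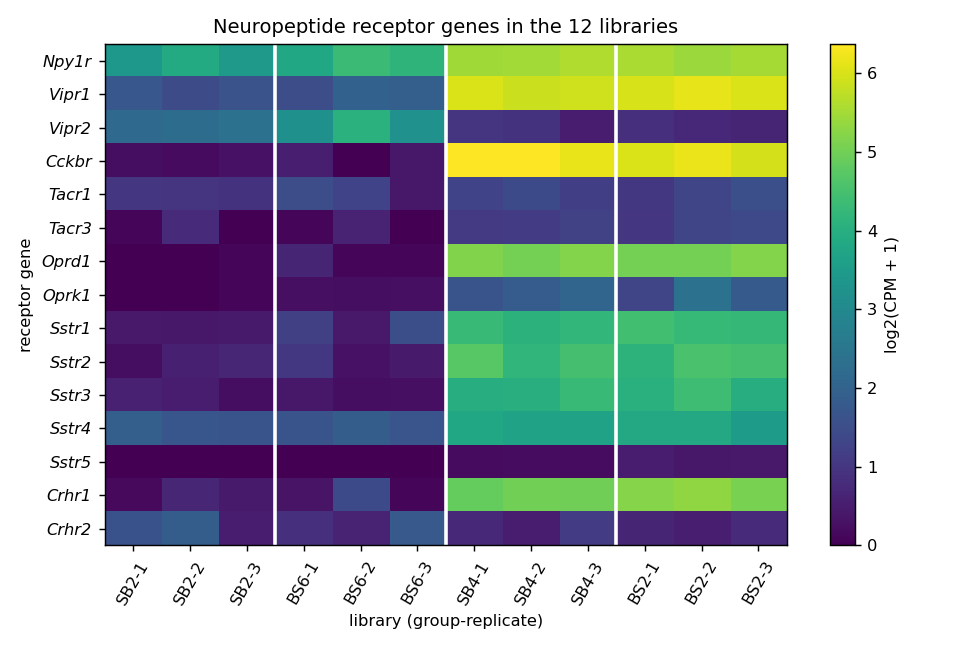
Levels of 15 receptor genes (rows) in the 12 libraries (columns, grouped by white lines), as log2(CPM + 1) on the colour scale. Most rows are bright in SB4 and BS2 and dark in SB2 and BS6, and Vipr2 shows the opposite pattern. Tacr1, Tacr3, Sstr5 and Crhr2 are low throughout, at 2.66 CPM or less in every library.

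Genes that process and package peptide precursors were also compared. Of 15 listed genes, 13 were higher in SB4 than in SB2, beside 27.8% of all genes, and 14 were lower in BS6 than in BS2, beside 26.5%. The median log2 fold change was 5.86 and -4.83, against -0.01 and 0.02 for all genes. Pcsk2, a prohormone convertase that cuts most of these precursors, was at 375, 405 and 397 CPM in SB4 against 8, 5 and 4 counts in SB2, with log2 fold changes of 10.12 (SE 0.13) and -10.20 (SE 0.84). Vgf, a granin-like precursor, and Pcsk1, a second convertase, had log2 fold changes of -9.64 and -9.01 in BS6 against BS2 (fitted values from a few counts in BS6). Cpe, the carboxypeptidase that trims the cut ends, kept more of its level, at 1484 ± 49.6 CPM in SB4 and 300 ± 9.56 CPM in SB2 (SD, n = 3). Pam, which amidates peptides such as Npy and substance P, was called in neither comparison, at 248, 275 and 270 CPM in SB4 and 333, 383 and 376 CPM in SB2. Its log2 fold change in SB4 against SB2 was -0.46 (SE 0.08, adjusted p = 1.9e-04 by edgeR's quasi-likelihood test). Pam was thus lower in SB4, by less than the fold threshold.

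Chgb, chromogranin B, was the other gene of that list not called in SB4 against SB2. It was at 608, 572 and 592 CPM in SB4 and at 103, 2.33 and 169 CPM in SB2, so SB2 replicate 2 stood far below the other two. In BS6 it was at 94.9, 85.9 and 144 CPM. A list of 9 pineal and photoreceptor genes, including Tph1 and Crx and put together after the data had been seen, was likewise lowest in replicate 2 within SB2, and the order within BS6 differed from that of Chgb. The summed level of the list was 127, 8.79 and 220.2 CPM in the SB2 libraries, 137 to 196 CPM in BS6 and 3.01 to 4.58 CPM in the neuron-rich libraries, in which Crx was at 0 in each. The part of these transcripts in the Chgb level was not tested. Among the members, Npy, Tac1 and Cort were highest in SB2 replicate 2 of the SB2 libraries and Cck lay between the other two, while Vip and Pdyn had at most 3 counts in any of them and cannot be ordered.

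The list of GABA and interneuron identity genes held 22 genes, 20 of them among those counted. In SB4 against SB2, 18 were higher and 1 lower (27.8% and 28.6% of all genes), with a median log2 fold change of 6.53 beside -0.01 for all genes. In BS6 against BS2, 18 were lower and 0 higher (26.5% and 29.0% of all genes), with a median of -4.85 beside 0.02. Lamp5, a marker of neurogliaform interneurons that also occurs in excitatory neurons, was at 316, 343 and 392 CPM in SB4 and at 3, 3 and 2 counts in SB2, a ratio of 2159 (counting interval 1096 to 5002). Gad2, a GABA-synthesising enzyme, was at 197, 232 and 239 CPM in SB4 and 0.285, 1.40 and 0.0611 CPM in SB2. Lhx6, a transcription factor of the interneuron lineage that gives rise to Pvalb cells, differed less, at 20.5 to 24.0 CPM in SB4 and 7.29 to 8.06 CPM in SB2 (log2 fold change 1.51, SE 0.12). Sox6, which acts in the same lineage and also in cartilage, was called in neither comparison. Chodl was lower in SB4 than in SB2 (log2 fold change -2.31, SE 0.52, adjusted p = 0.0019 by edgeR's quasi-likelihood test), at 0.355 to 0.557 CPM against 1.34 to 4.46 CPM. Between SB4 and BS2 0 of 19 genes were called, beside 0.147% of all genes, with 7 at an unadjusted p under 0.05 by edgeR's quasi-likelihood test (11.9% of all genes).

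Other neuropeptide precursors were mostly low. Of 21 listed, 14 were among those counted and 10 were tested in each of the study's comparisons, with 5 higher and 1 lower in SB4 than in SB2 (27.8% and 28.6% of all genes) and 5 lower and 3 higher in BS6 than in BS2 (26.5% and 29.0% of all genes). The median log2 fold change was 1.83 and -1.85, beside -0.01 and 0.02 for all genes. Adcyap1, the precursor of the Vip-related peptide PACAP, was at 24.8, 20.1 and 29.5 CPM in SB4 and 26.2, 25.6 and 28.0 CPM in BS2, and had 0, 7 and 0 counts in SB2 and 0, 4 and 0 counts in BS6. Its log2 fold change was 7.36 (SE 0.56) and -8.14 (SE 0.61). Edn3, an endothelin precursor, was higher in BS6 than in BS2 by 1.01 (SE 0.29, adjusted p = 0.018 by edgeR's quasi-likelihood test). That call was lost without BS2 replicate 1 or 2 or BS6 replicate 1 or 3 (0.86 to 0.94), with DESeq2 (0.995), with total counts (0.99), with the replicate block (0.97) and in the fit of all 12 libraries (adjusted p = 0.057).

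Genes whose levels followed each member were ranked by Pearson's r of log2(CPM + 1) over the 12 libraries, which form 2 separate sets, so that r mainly reflects the split between neuron-rich and bone-rich libraries. Among genes whose mean reached 10 CPM, Vip was most like Gpr26, Cck most like Zdhhc22, Pdyn most like Vstm2a and Npy most like Nudt3, with r from 0.996 for Npy to 0.9998 for Vip. The number of genes with r over 0.95 was 3005 for Vip, 2998 for Pdyn, 2978 for Cck, 1861 for Npy, 405 for Tac1 and 6 for Cort. For Penk and Pvalb it was 0, and the nearest genes were Selenoo (r = 0.911) and Pacsin3 (r = 0.889). Within the 6 neuron-rich libraries the nearest genes were others: Dhx36 for Vip (r = 0.990), Ipo4 for Cck (0.988), Doc2b for Npy (0.987), Gm9833 for Tac1 (0.988), Homez for Penk (0.986), Actr6 for Pdyn (0.988), Sec11c for Cort (0.992) and Klc2 for Pvalb (0.990), each the best of 10048 or 10049 genes and given as a description.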

How the data were processed

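Poly(A) RNA of 12 libraries in 4 groups of 3 was sequenced by the study as paired reads. After trimming with fastp and alignment to mm10 with HISAT2 2.1.0, the authors deposited un-normalised counts for each gene symbol. The counting program, annotation and strand setting, and whether the counts precede the batch correction of the study, are not given in the sources used here. Columns were matched to samples by name, with 0 columns of other samples, and each row names a gene.

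Differential expression used the quasi-likelihood test of edgeR (version 4.0.16, R 4.3.3) with robust dispersions and TMM factors, in fits of 3 against 3 libraries, after filterByExpr at a minimum of 10 counts, with Benjamini-Hochberg adjustment over all genes tested. The study itself used DESeq2, run here (1.42.0) as an alternative. A contrast in 1 model of all 12 libraries compared the changes over time. The scripts were tested on simulated data. Total counts ranged from 14126082 to 18972654 (median 15955222), a fold against a group at 0 used a floor of 3 counts per library, and 1 against a group with at most 3 counts in each library is a ratio of pooled counts with an exact Clopper-Pearson interval, which covers counting error only. No replicate pair agreed within sampling noise.

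The members, and gene lists written from general knowledge, were chosen with earlier results of these data known. The cerebellar and the pineal lists were added after the data had been seen. Named from each list were genes called between SB4 and BS2, the 2 with the highest mean CPM, and the 2 with the largest called change in each of the study's comparisons among genes with at least 10 CPM in the higher group. Vipr2, Npy1r, Pam, Sox6, Lhx6, Chodl, Tacr1, Eno2, Nrgn, Fosb, Egr2, Bdnf, Ppp1r17 and Crx fall outside that rule and were named after their values had been seen. The same holds for Chga, Scg2, Sstr5, Tacr3 and Crhr2. Alternatives were DESeq2, RLE factors, total counts, other filters, 1 fit of all libraries, a replicate block, no fold threshold and leaving out each library.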

Additional observations from a re-analysis of the deposited data

Results flagged for a closer look

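Late minus early levels differed between the brain-labelled and the skull-labelled groups for 6 of the 8 members, by edgeR's quasi-likelihood test of the difference itself over all 12 libraries, beside 73.6% of all 18068 genes tested. The change from SB2 to SB4 minus the change from BS2 to BS6 was 6.41 on the log2 scale for Npy (adjusted p = 2.1e-06), 5.77 for Tac1 (adjusted p = 5.2e-05) and 2.90 for Cort (adjusted p = 7.1e-05). It was 17.96 for Cck (adjusted p = 4.5e-11), 18.73 for Vip (adjusted p = 6.8e-12) and 21.01 for Pdyn (adjusted p = 5.8e-10), where the last 2 rest on groups with at most 3 counts per library and depend on the prior count. For Penk the difference was -0.49 (adjusted p = 0.12) and for Pvalb 0.78 (adjusted p = 0.41). The late days differ, at 4 and 6, and each change sets a neuron-rich against a bone-rich group in the opposite order of days.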

How the results depend on the processing

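The calls of Npy, Vip, Cck, Tac1 and Pdyn in both of the study's comparisons held under DESeq2, RLE factors, total counts, no filter and 1 fit of all 12 libraries. With at least 10 counts required in every library, 3 members were called in SB4 against SB2 (Cort, Npy and Tac1), and 2 (Cort and Npy) both in BS6 against BS2 and in the difference between the changes, where Vip, Cck and Pdyn did not pass that filter, nor Tac1 where BS6 was included. Leaving out 1 library gave 5 to 6 member calls in SB4 against SB2, 6 to 7 in BS6 against BS2, and 0 in the other pairs. The replicate numbers do not pair the libraries, since same-numbered libraries deviated together with r from -0.14 to 0.11, and a replicate block gave 6, 6, 0 and 0 member calls for SB4 against SB2, BS6 against BS2, SB4 against BS2 and SB2 against BS6, and 6 for the difference between the changes. The block moved the calls over all genes from 24 to 61 in SB4 against BS2 and from 303 to 0 in SB2 against BS6, where DESeq2 gave 49 and 1058 and the fit of all 12 libraries 8 and 1273.

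Values near 0 changed sign. Penk in SB4 against SB2 was 0.0089 with DESeq2, 0.0068 with the strict filter and 0.015 with RLE factors, and -0.19 to 0.13 when 1 library was left out. Leaving out 1 library gave -0.81 to 0.15 for Pvalb in SB4 against SB2, -0.17 to 0.13 for Penk and -0.082 to 0.093 for Cck in SB4 against BS2, and -0.95 to 0.29 for Npy and -0.20 to 0.93 for Cck in SB2 against BS6. Npy was at 0.43 without both SB2 replicate 3 and BS6 replicate 2, a setting chosen after seeing the data. The cause was not tested. Depth limits Vip and Pdyn in the bone-rich libraries, where differences under the floor of 3 counts could not be seen.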

Other observations

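Activity-regulated genes were compared between SB4 and BS2 as a summed level, which was above every BS2 library in all 3 SB4 libraries. The sum of 10 such genes, the immediate early genes Fos, Fosb, Junb, Egr1, Egr2, Arc, Npas4 and Nr4a1 with Bdnf and Nptx2, was 1488, 753 and 1372 CPM in SB4 and 553, 588 and 585 CPM in BS2. All 10 fitted differences were above 0, with a median log2 fold change of 0.88 beside 0.00 for all genes, 7 had an unadjusted p under 0.05 by edgeR's quasi-likelihood test (11.9% of all genes), and 0 were called (0.147% of all genes). Gene by gene the libraries of both groups overlapped in part, since Egr2 was at 6.20 CPM in SB4 replicate 2 against 6.66 to 8.28 CPM in BS2, and Bdnf at 28.5 CPM against 29.7 to 33.1 CPM. Fosb passed the adjusted p with a difference short of the fold threshold (0.75, SE 0.13, adjusted p = 0.0061). Arc had the largest difference of the 10, at 1.90 (SE 0.47, adjusted p = 0.26).

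S100a9, a neutrophil gene, was called higher in SB4 than in BS2 by 2.04 on the log2 scale (SE 0.40, adjusted p = 0.012 by edgeR's quasi-likelihood test), at 2.27, 2.88 and 1.17 CPM against 0.472, 0.384 and 0.654 CPM. The call was lost without BS2 replicate 2, BS2 replicate 3 or SB4 replicate 2 (adjusted p from 0.054 to 0.068) and in the fit of all 12 libraries (adjusted p = 1), settings applied to this gene after the data had been seen.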
